A study of Rattus norvegicus with 16 samples.

Results

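The genes described here encode proteins of the sarcomere, the contractile unit of the heart muscle cell: the sarcomeric actins Actc1 (ENSRNOG00000008536) and Acta1 (ENSRNOG00000017786), the troponins Tnnt2 (ENSRNOG00000033734) and Tnni3 (ENSRNOG00000018250), the tropomyosin Tpm1 (ENSRNOG00000018184) and a light chain (ENSRNOG00000001313). They were chosen by name, with 1 Ensembl identifier each, as 6 of the 23918 genes in the deposited tables, and 5 of the 6 passed the filter on low counts that left 14175 genes for testing. The tables carry identifiers only, and no table used here pairs them with names, so each name is the one that came with its identifier when the genes were chosen. Levels are given in CPM, the usual scaling of counts to one library total, here with totals adjusted by the trimmed mean of M values (TMM). They are not compared between genes, because no transcript lengths were at hand.

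RNA was sequenced from the hearts of 16 adult male Wistar rats. The control group (n = 4) received no agent. The D55 group (n = 6) and the D100 group (n = 6) received streptozotocin, a toxin of pancreatic beta cells that is used to make rodents diabetic, as 1 injection of 55 or 100 mg/kg into a tail vein. Raised blood glucose was checked a day after the injection, and all hearts were drained of blood at the end of 4 days. Each library came from its own rat and no genetic change was labelled in any group; the labels name neither the part of the heart used nor a batch. The comparisons asked how the severity of diabetes is reflected in cardiac transcripts, here in those of the thin filament.

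In heart muscle, actin polymers and tropomyosin form the thin filament, and the troponin complex makes it sensitive to calcium. Troponin T anchors the complex to tropomyosin, and troponin I holds the filament in the relaxed state until calcium binds to troponin C. Actc1 is the main sarcomeric actin of the adult heart, whereas Acta1, the skeletal muscle actin, is prominent in the fetal rodent heart and is known to be re-expressed under haemodynamic load.

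Total estimated counts were 4.69 to 48.4 M per library, and the lowest belonged to D100 F. The 10 most abundant genes, none of them a gene described here, took 49.7% ± 7.60 of the counts in control (SD, n = 4), 43.6% ± 11.1 in D55 (SD, n = 6) and 60.8% ± 5.90 in D100 (SD, n = 6). D55 B and E stood apart from the other libraries, with 30.1% and 30.4%. The 5 genes that passed the filter together held 1.33% ± 0.478 of all counts in control (SD, n = 4), 1.55% ± 0.813 in D55 (SD, n = 6) and 0.489% ± 0.263 in D100 (SD, n = 6). For D100 over D55, the fold change of each tested gene is given with and without them. Correlations within D55 were not computed without them.

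The identifier that came with the name Myl2, ENSRNOG00000001313, was nearly uncounted in every library. Its rounded counts were 1, 5, 3 and 8 in control, 4, 7, 21, 4, 17 and 10 in D55, and 0, 1, 6, 2, 0 and 0 in D100. The highest level was 0.868 CPM, in D55 C. Between 0.0413 and 0.619 CPM correspond to 3 counts in a library, the limit that a count of 0 allows, and this covers counting error only. Myl2 encodes the regulatory light chain of the ventricle and is known as one of the most abundant transcripts of ventricular muscle, so these counts go against the name. The identifier did not pass the filter, was not tested, and is called by its number, and nothing is reported here on Myl2.

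For the actins, which encode nearly identical proteins, the 250 bases upstream of the annotated start are shown. The CArG box, the binding motif of serum response factor, was searched as CC, 6 letters A or T, then GG. Only the window of Acta1 held an exact match. Runs a letter off, among them ccctatatgg in the Actc1 window and ccatatacgg in that of Acta1, were neither searched for nor counted. Both windows hold further runs of that kind. The sequences are from RefSeq on the assembly GRCr8, whereas the counts were made on Rnor_6.0; they were matched by name, which gave 6 windows for 5 of the 6 names, 2 of them for Tnnt2. Capitals mark the CArG box, at positions -94 to -85 counted from the start. The Actc1 window lies at chr3:121271828-121272077 and the Acta1 window at chr19:68784195-68784444, both on the minus strand and printed 5′ to 3′.
Actc1: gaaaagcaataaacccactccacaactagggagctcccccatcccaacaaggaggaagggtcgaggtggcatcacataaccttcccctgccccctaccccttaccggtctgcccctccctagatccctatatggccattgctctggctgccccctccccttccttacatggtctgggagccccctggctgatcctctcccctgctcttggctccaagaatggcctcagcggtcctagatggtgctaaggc
Acta1: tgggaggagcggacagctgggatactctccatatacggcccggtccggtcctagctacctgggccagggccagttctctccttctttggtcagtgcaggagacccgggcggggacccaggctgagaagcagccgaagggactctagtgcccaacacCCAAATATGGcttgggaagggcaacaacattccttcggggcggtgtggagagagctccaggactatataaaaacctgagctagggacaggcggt

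Each motif was searched on both strands. The CArG box of Acta1, CCAAATATGG, reads alike on either strand and was counted once. Such a box was in 501 of the 33469 rat promoter windows of this length. The muscle motif CATTCC, bound by TEAD factors, was in 12.1% of all windows. It was in the Acta1 window at -67 to -62 and in 1 of the Tnnt2 windows at -83 to -78. The Tpm1 window held it on the other strand, as GGAATG, at -31 to -26. The GATA motif GATAAG was in the Tnni3 window on the other strand, as CTTATC, at -23 to -18, and in 6.18% of all windows. None of these motifs overlapped another. A match is a run of letters and was not tested for binding, and the absence of a match concerns these windows only.

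Actc1 stood at 5154, 5293, 2801 and 3970.2 CPM in the 4 control libraries. In D55 its level was lowest at 3037 CPM, had a median of 3835 CPM and was highest at 6849 CPM. In D100 the lowest was 1136 CPM, the median 1543 CPM and the highest 2633 CPM. Every D100 library lay below every control and every D55 library, while D55 and control libraries overlapped. The mean and SD were 4305 ± 1165 CPM in control (n = 4), 4296 ± 1471 CPM in D55 (n = 6) and 1739 ± 626 CPM in D100 (n = 6). With library totals not adjusted by TMM, D100 did overlap with control. Its highest library then had 2723 CPM, above the lowest of control at 2325 CPM but below the lowest of D55 at 2906 CPM.

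Actc1 was 2.48-fold lower in D100 than in control (log2 fold change -1.31, SE 0.29, edgeR adjusted p = 0.0173). Of all tested genes, 4.38% differed at this threshold in this comparison, 2.46% were lower in D100 at it, and 3.3% had a lower log2 fold change than Actc1. The call was lost without control 1 (-1.21, edgeR adjusted p = 0.0772) or without control 2 (-1.19, edgeR adjusted p = 0.0768). In bulk heart RNA, fewer heart muscle cells and less of a transcript per cell cannot be told apart.

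Against D55, Actc1 was 2.47-fold lower in D100 (log2 fold change -1.30, SE 0.26, edgeR adjusted p = 0.0128). This comparison called 35.6% of all tested genes and 21.8% of all tested genes as lower in D100, and 13.3% had a lower log2 fold change. With D55 B and E left out it was -0.99 (edgeR adjusted p = 0.0717). D55 against control gave -0.0029 on the log2 scale (SE 0.29, edgeR adjusted p = 0.997) for Actc1, in a comparison that called 0.0635% of all tested genes.

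**Figure D1:**
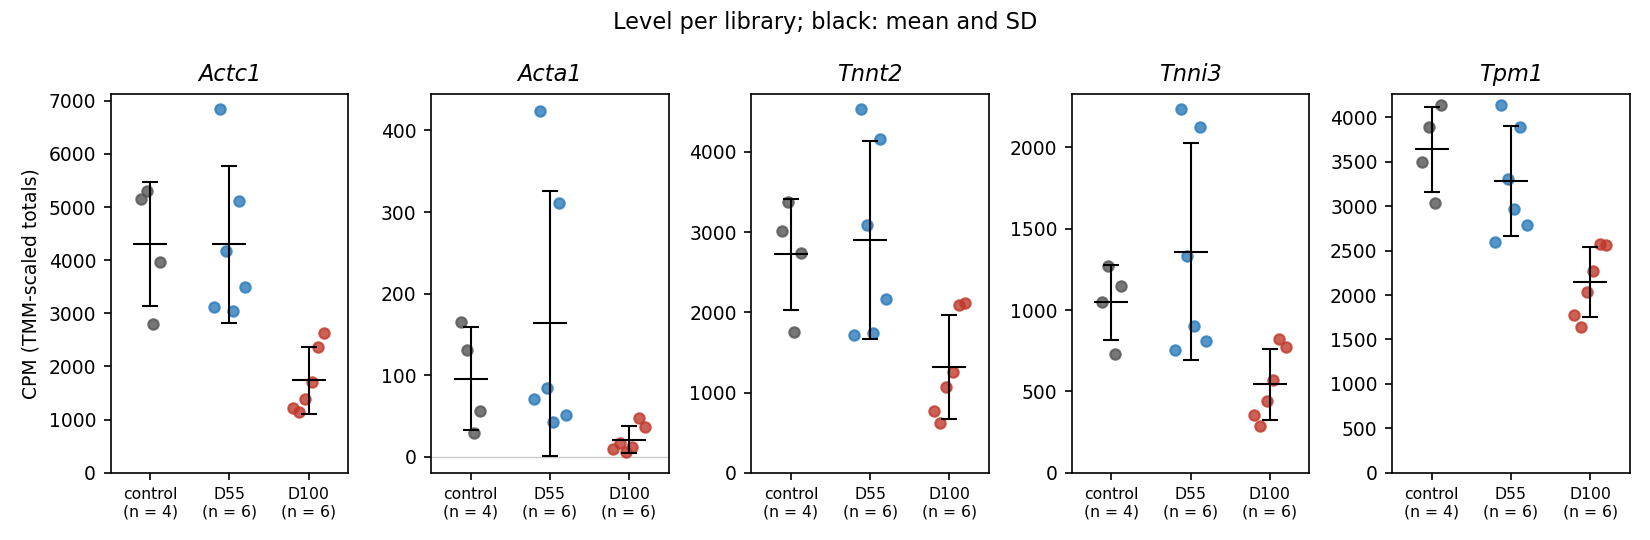
The plot gives the level of each of the 5 tested genes in CPM, 1 point per library, for control (n = 4), D55 (n = 6) and D100 (n = 6), with the mean and SD in black. For Actc1 and Tpm1 the highest D100 library, at 2633 and 2570 CPM with TMM-adjusted totals, lies below the lowest library of the other groups.

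Acta1 had the largest ratio of highest to lowest level of the 5 genes tested, with 5.48 to 424 CPM over the 16 libraries. Its level was 165, 131, 29.3 and 56.6 CPM in the control libraries. In D55 the lowest library had 42.0 CPM, the median was 77.7 CPM and the highest was 424 CPM. In D100 the lowest had 5.48 CPM, the median was 14.3 CPM and the highest was 47.5 CPM. D100 overlapped with control through control 3 and with D55 through D55 D. D55 B and E, at 424 and 311 CPM, lay above the other 4 D55 libraries, of which the highest had 84.3 CPM. The mean and SD were 95.5 ± 63.3 CPM in control (n = 4), 164 ± 162 CPM in D55 (n = 6) and 21.1 ± 16.8 CPM in D100 (n = 6).

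Acta1 was lower in D100 than in D55 (log2 fold change -2.97, SE 0.70, edgeR adjusted p = 0.0156), and 0.762% of tested genes had a lower value. The value became -1.57 with D55 B and E left out (edgeR adjusted p = 0.145). Against control its D100 log2 fold change of -2.19 (SE 0.72) did not pass (edgeR adjusted p = 0.096), although 0.755% of tested genes had a lower value. It passed without D55 B and E (-2.20, edgeR adjusted p = 0.0216), libraries that enter the spread shared by all groups, and without D100 E (-2.64, edgeR adjusted p = 0.0443). D55 against control gave 0.78 (SE 0.73, edgeR adjusted p = 0.692), and -0.62 without D55 B and E, neither past the threshold.

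Actc1 and Acta1 encode nearly identical proteins, and reads from stretches alike in both transcripts could be divided between them. Among the 14 libraries in which the Acta1 estimate lay between 1 and 10000, it was within 0.01 of a whole count in 1. A fractional estimate tells that some reads were divided but not how many, so the uncertainty of the Acta1 level was not measured. With the estimates of both actins summed, the log2 fold change was -1.32 in D100 over control (SE 0.30, edgeR adjusted p = 0.0191) and -1.34 in D100 over D55 (SE 0.27, edgeR adjusted p = 0.0129). For D55 over control the sum gave 0.02 (SE 0.30, edgeR adjusted p = 0.984). Every library had at least 16 Actc1 counts for each Acta1 count, the fewest in D55 B, so the sum follows Actc1. It cannot show how far divided reads affect the Acta1 values.

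The balance of the actins was read as the number of Actc1 counts for each Acta1 count, which needs no scaling between libraries. It was 31.1, 40.5, 95.5 and 70.1 in the control libraries. In D55 the ratio ran between 16.2 in B and 72.3 in D, and in D100 between 49.8 in E and 253 in C. On the log2 scale it averaged 5.75 ± 0.74 in control (SD, n = 4), 5.23 ± 0.98 in D55 (SD, n = 6) and 6.69 ± 0.86 in D100 (SD, n = 6). The D100 minus D55 difference of 1.46 had an exact two-sided permutation p of 0.0152, or 0.0909 after Benjamini-Hochberg adjustment over 30 ratio tests, and D100 minus control, 0.94, had an exact permutation p of 0.114 (adjusted 0.245). Neither passed the threshold. With D55 B and E left out, the D100 minus D55 difference was 0.85 (exact permutation test, adjusted p = 0.229).

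Tnnt2, which encodes cardiac troponin T, had 3013, 3374, 1756 and 2739.9 CPM in the control libraries. In D55 the lowest library had 1718 CPM, the median was 2624 CPM and the highest was 4531 CPM. In D100 the lowest had 621 CPM, the median was 1164 CPM and the highest was 2117 CPM. D100 E and F, at 2089 and 2117 CPM, lay above control 3 and above D55 A and D. The mean and SD were 2721 ± 694 CPM in control (n = 4), 2898 ± 1229.8 CPM in D55 (n = 6) and 1319.7 ± 646 CPM in D100 (n = 6).

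Tnnt2 fell in D100 against D55 (log2 fold change -1.14, SE 0.33, edgeR adjusted p = 0.0227), and 16.4% of tested genes had a lower value. The call was lost without D55 B and E (-0.72, edgeR adjusted p = 0.209), as it was without any 1 of D55 B, D55 E, D100 A, D100 B and D100 C (edgeR adjusted p 0.0519 to 0.0634). D100 over control gave -1.04 (SE 0.36, edgeR adjusted p = 0.115), which did not pass, and 6.43% of tested genes had a lower value. For D55 over control the value was 0.09 (SE 0.37, edgeR adjusted p = 0.936).

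Tnni3, which encodes cardiac troponin I, had 1051, 1269.5, 730 and 1145 CPM in the control libraries. In D55 the lowest library had 752 CPM, the median was 1116 CPM and the highest was 2234 CPM, and in D100 the lowest had 289.6 CPM, the median was 508 CPM and the highest was 822 CPM. D100 E and F lay above control 3 and D55 A, and D100 E also above D55 F. D55 B and E, at 2234 and 2123 CPM, were the highest libraries of the series for this gene. The mean and SD were 1049 ± 231 CPM in control (n = 4), 1359 ± 667 CPM in D55 (n = 6) and 542 ± 219 CPM in D100 (n = 6).

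Tnni3 fell in D100 against D55 (log2 fold change -1.33, SE 0.32, edgeR adjusted p = 0.0158), and 12.9% of tested genes had a lower value. The call was lost without D55 B and E (-0.81, edgeR adjusted p = 0.143). In D100 against control Tnni3 did not pass (-0.95, SE 0.35, edgeR adjusted p = 0.13), although it did without D55 B and E (-0.95, edgeR adjusted p = 0.0402). With all libraries, 8.32% of tested genes had a lower value in D100 over control. D55 against control gave 0.37 (SE 0.36, edgeR adjusted p = 0.693). In the 4 libraries where the Tnni3 estimate lay under 10000, 0 estimates were whole counts, so kallisto divided some reads between Tnni3 and similar transcripts.

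The ratio of the troponin counts within a library varied less than the actin ratio. The log2 ratio of Tnnt2 to Tnni3 averaged 1.36 ± 0.12 in control (SD, n = 4), 1.13 ± 0.18 in D55 (SD, n = 6) and 1.24 ± 0.15 in D100 (SD, n = 6). The largest difference, D55 minus control, was -0.24 with an exact two-sided permutation p of 0.0476 (adjusted 0.143), which did not pass. With D55 B and E left out it was -0.17 (exact permutation test, adjusted p = 0.308). Levels in single libraries spanned 621 to 4531 CPM for Tnnt2 and 289.6 to 2234 CPM for Tnni3.

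Tpm1 encodes the alpha chain of tropomyosin. It had the smallest ratio of highest to lowest level of the 5 genes tested, with 1641 to 4143 CPM over the 16 libraries. Its level was 3493, 3889, 3038 and 4136 CPM in the control libraries. In D55 the lowest library had 2592 CPM, the median was 3138 CPM and the highest was 4143 CPM, and in D100 the lowest had 1641 CPM, the median was 2155 CPM and the highest was 2570 CPM. All D100 libraries lay below all control and all D55 libraries, the nearest being D100 E at 2570 CPM and D55 A at 2592 CPM. The mean and SD were 3639 ± 480.4 CPM in control (n = 4), 3281 ± 622 CPM in D55 (n = 6) and 2144 ± 394 CPM in D100 (n = 6). With library totals not adjusted by TMM, D100 did overlap with control. Its highest library then had 2654 CPM, above the lowest of control at 2521 CPM but below the lowest of D55 at 2841 CPM.

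Tpm1 was 1.70-fold lower in D100 than in control (log2 fold change -0.76, SE 0.18, edgeR adjusted p = 0.0247), and 13.1% of tested genes had a lower value. The call was lost without any 1 of control 1, 2 and 4 and D100 A, B and C, with values of -0.84 to -0.68 over all libraries left out and edgeR adjusted p up to 0.0982. Tpm1 was also lower in D100 than in D55 (-0.61, SE 0.16, edgeR adjusted p = 0.0177), and 29.3% of tested genes had a lower value. That call was lost without D55 B (-0.53, edgeR adjusted p = 0.0502) and without D55 B and E (-0.44, edgeR adjusted p = 0.151). D55 against control gave -0.15 (SE 0.18, edgeR adjusted p = 0.758). Transcripts of Tpm1 are spliced into muscle and non-muscle forms, which these gene-level counts do not separate.

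**Figure D2:**
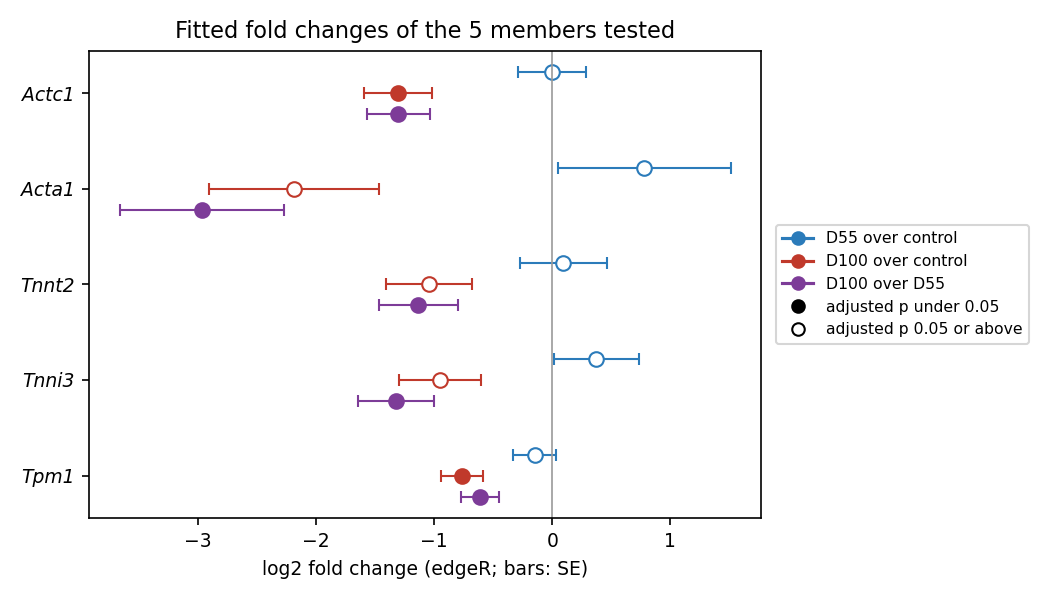
The plot gives the fitted log2 fold change of the 5 tested genes with its SE, for D55 over control, D100 over control and D100 over D55; filled points have an edgeR adjusted p under 0.05. All 5 points of D100 over D55 are filled and below 0, as are Actc1 and Tpm1 in D100 over control, and no point of D55 over control is filled.

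Counted together, 2 of the 5 tested genes were called lower in D100 than in control and 3 did not pass. Of all tested genes, 4.38% were called in this comparison and 2.46% as lower in D100. The 5 genes all had an unadjusted p under 0.05, against 22.8% of all tested genes. The median log2 fold change of the 5 was -1.04, against a median of -0.03 over the 14175 tested genes. In D100 against D55 all 5 were called lower, beside 21.8% of all genes called lower and 35.6% called in either direction. The median of the 5 was -1.30, beside -0.03 over all genes tested. In that comparison 51.4% of all genes had an unadjusted p under 0.05. In D55 against control edgeR called 0 of the 5, beside 0.0635% of all genes, and had 0 at an unadjusted p under 0.05, against 8.97%. DESeq2 and limma-voom also called 0, beside 88 and 522 of all genes. In limma-voom with sample weights, however, 4 had an unadjusted p under 0.05, beside 3089 of all genes. The median in this comparison was 0.09, beside 0.03 over all genes tested. Libraries of D100 and control did not overlap for 2 of the 5, beside 7.57% of all genes (4.42% with D100 lower), and those of D100 and D55 for 2 of the 5, beside 4.2% of all genes (2.32% with D100 lower). With totals not adjusted by TMM, both Actc1 and Tpm1 did overlap between D100 and control. The share of all genes was not computed on that scale. D55 and control overlapped for each of the 5, beside 2.55% of all genes that did not overlap. The comparisons with control share their 4 control libraries.

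Part of these differences depended on few libraries. With D55 B and E left out, edgeR called 4 of the 5 in D100 against control, beside 1493 of all 13854 genes then tested. It called 0 of the 5 in D100 against D55, beside 123 of all genes, while all 5 had an unadjusted p under 0.05, as did 3095 of all genes. DESeq2 on all libraries called 3 of the 5 in D100 against control and 5 of the 5 in D100 against D55, beside 1438 and 6600 of 14175 genes. Without control 1 or control 2, edgeR called 0 of the 5 in D100 against control, all 5 at an unadjusted p under 0.05, beside 180 and 205 of all genes called. In limma-voom with sample weights, which called all 5 in D100 against control beside 9594 of all genes, control 1 had a weight of 4.92 and D55 B and E weights of 0.127 and 0.129. Without scaling factors the log2 fold changes of D100 over control were -1.72 for Actc1, -2.60 for Acta1, -1.42 for Tnnt2, -1.33 for Tnni3 and -1.18 for Tpm1, while the median of all genes moved to -0.48, and the same 2 genes passed.

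**Figure D3:**
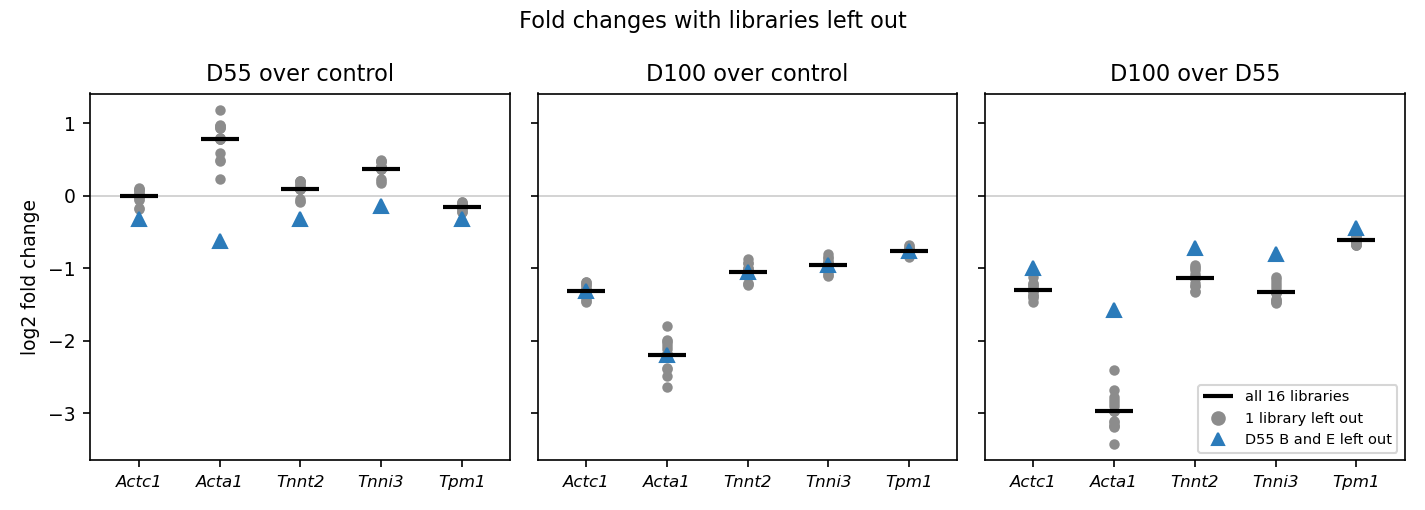
The plot gives the log2 fold change of each tested gene in the 3 comparisons with all 16 libraries (bar), with each library left out in turn (grey points) and with D55 B and E left out (triangles). Without D55 B and E the Acta1 value is -0.62 in place of 0.78 in D55 over control and -1.57 in place of -2.97 in D100 over D55, and it is -2.20 beside -2.19 in D100 over control.

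The 5 tested genes varied together between libraries. Over the 16 libraries, Pearson's r of log2 CPM was 0.848 for Acta1 with Tpm1, the lowest of 10 pairs, and 0.978 for Tnnt2 with Tnni3, the highest. Spearman's rho was 0.859 to 0.95, and without the 2 libraries farthest from the median r was 0.822 to 0.962. Each had a permutation p of 1e-05 to 5e-05, where 1e-05 is the smallest that 100000 permutations can give, and adjusted p over 15 relations was at most 5.36e-05. These permutations shuffled libraries across groups, so a group difference that the genes share enters both r and p. Other gene pairs were not examined, so whether this is particular to these genes was not tested. The order within groups was alike in part: in all 5 genes control 3 was the lowest control library, D55 B and E were the highest D55 libraries and D100 E and F the highest D100 libraries. Within the 6 D55 libraries r was 0.900 to 0.990 (exact permutation p 0.00139 to 0.0236), with D55 B and E among them. Within the 6 D100 libraries r was 0.626 to 0.996 (exact permutation p 0.00139 to 0.193), and the 4 pairs with Acta1 were the 4 lowest.

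The fraction of a library taken up by the 10 most abundant genes varied in the opposite direction. Pearson's r of that share with a gene's log2 CPM ran between -0.953 for Tnni3 and -0.843 for Tpm1 over the 16 libraries (permutation p 1e-05 to 5e-05, adjusted at most 5e-05), with Spearman's rho of -0.962 to -0.856. Without the 2 libraries farthest from the median share, r was -0.938 to -0.838. It was -0.980 to -0.934 within D55 (exact permutation p 0.00139 to 0.0153) and -0.965 to -0.697 within D100 (exact permutation p 0.00278 to 0.118). The values within D55 include D55 B and E. Both measures come from the same library, and the permutations over the 16 libraries shuffled them across groups.

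With that share as a term in the fit, a choice made after the data were seen, Actc1 and Tpm1 were again lower in D100 than in control. Their log2 fold changes were then -0.76 (SE 0.13, edgeR adjusted p = 0.00149) and -0.50 (SE 0.11, edgeR adjusted p = 0.00576). Acta1 had -0.67, Tnnt2 -0.39 and Tnni3 -0.32, none past the threshold (edgeR adjusted p 0.177 to 0.242). In D100 against D55 the values were -0.44 for Actc1, -0.37 for Acta1, -0.02 for Tnnt2, -0.18 for Tnni3 and -0.18 for Tpm1, and edgeR called 0 of the 5, with 1 at an unadjusted p under 0.05. Of all 14175 genes this fit called 1407 in D100 against control and 41 in D100 against D55, where 1770 had an unadjusted p under 0.05. With the 10 genes left out of totals and scaling instead, the same 2 and 5 genes were called as with them. The part of the 10 genes in these differences was not tested beyond these fits.

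**Figure D4:**
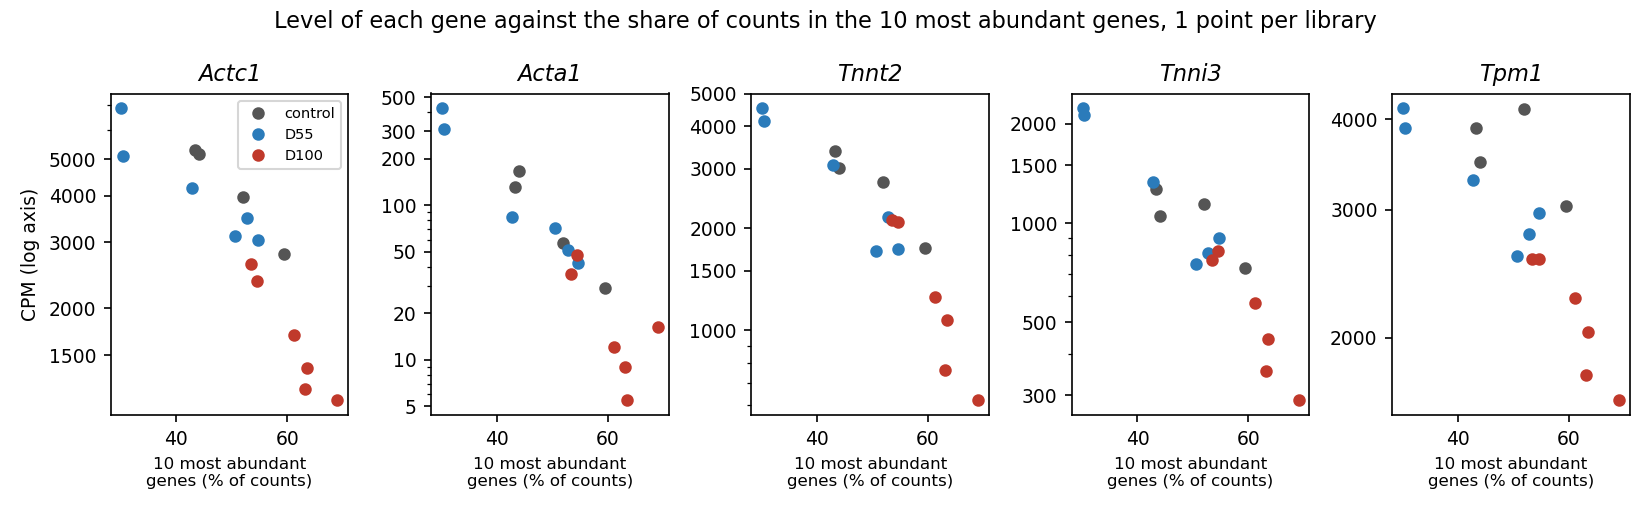
Each panel gives the CPM of 1 gene on a log axis against the percentage of counts in the 10 most abundant genes, 1 point per library, for control, D55 and D100. D55 B and E lie at the left, at 30.1% and 30.4%, and D100 B at the right, at 69.0%, with r of -0.953 to -0.843 over the 16 libraries.

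Ratios between genes of a library were compared for 10 pairs in 3 comparisons. By exact two-sided permutation tests 0 of the 30 passed an adjusted p of 0.05, and 10 had an unadjusted p under 0.05. Of these, 7 were in D100 against D55, 2 in D100 against control and 1 in D55 against control, from 10 tests each. The smallest p the design allows is 0.00476 against control and 0.00108 between the doses. The smallest values were in D100 against D55. Actc1 per Tpm1 differed by -0.70 on the log2 scale (exact permutation p = 0.00433, adjusted 0.0866), with -0.36 ± 0.25 (SD, n = 6) in D100 and 0.35 ± 0.22 (SD, n = 6) in D55. Against control, D100 differed by -0.56 for this pair (exact permutation p = 0.0238, adjusted 0.102). The groups overlapped for every ratio.

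Acta1 per Tpm1 differed by -2.16 between D100 and D55 (exact permutation p = 0.00649, adjusted 0.0866). The values were -7.05 ± 1.04 (SD, n = 6) in D100 and -4.89 ± 1.16 (SD, n = 6) in D55. Acta1 per Tnnt2 differed by -1.60 (exact permutation p = 0.00866, adjusted 0.0866). Tnni3 per Tpm1 differed by -0.67 (exact permutation p = 0.0195, adjusted 0.0974) and Actc1 per Tnni3 by -0.03 (exact permutation p = 0.823, adjusted 0.823). With D55 B and E left out, the D100 minus D55 differences were -0.60 for Actc1 per Tpm1, -1.45 for Acta1 per Tpm1, -1.08 for Acta1 per Tnnt2 and -0.42 for Tnni3 per Tpm1 (exact permutation tests, adjusted p = 0.229 each). That for Actc1 per Tnni3 was -0.18 (exact permutation test, adjusted p = 0.308). None of these passed the adjusted threshold, so these tests did not show that the 5 transcripts differed unequally between groups.

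**Figure D5:**
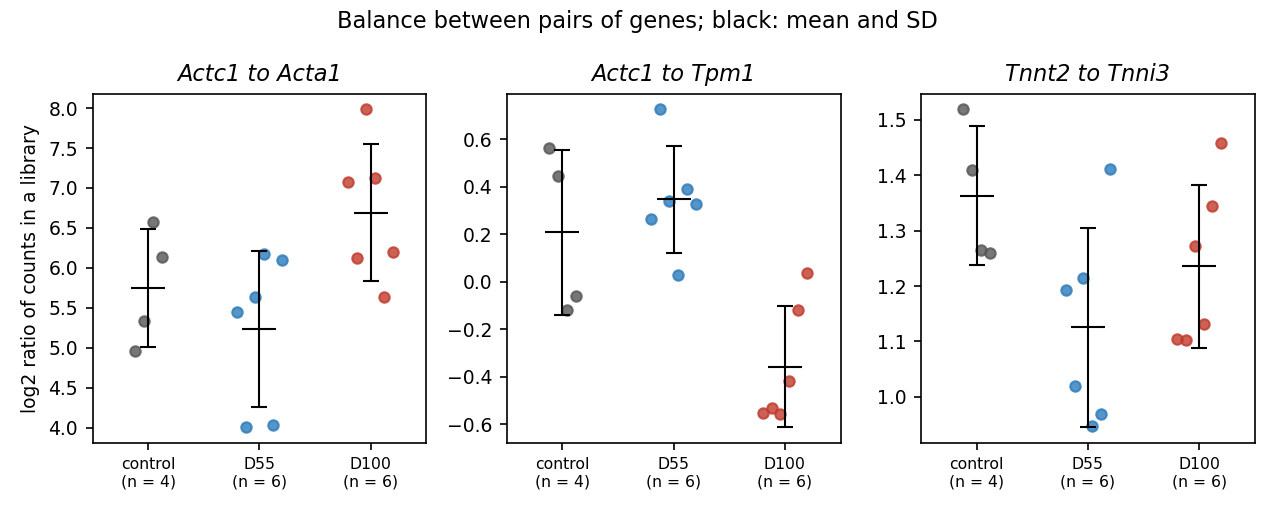
The plot gives the log2 ratio of counts of 3 pairs in each library, for control (n = 4), D55 (n = 6) and D100 (n = 6), with the mean and SD in black. For Actc1 to Tpm1 the means are -0.36 in D100 and 0.35 in D55, and the groups overlap.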

How the data were processed

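The authors deposited estimated counts for each gene, made with kallisto 0.43.1 on Rnor_6.0, per the submitters' processing notes; no source used here gives the annotation release or strand setting. They were rounded, filtered with filterByExpr, scaled by TMM and fitted over all 16 libraries with the quasi-likelihood test of edgeR 4.0.16 in R 4.3.3, 1 coefficient per group. P-values were adjusted by Benjamini-Hochberg over the 14175 genes tested, at 0.05. SEs were derived from the quasi-likelihood F. Log2 CPM for correlations used a prior count of 2. The test was checked on simulated data. DESeq2 1.42.0 and limma 3.58.1 were alternatives.

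Ratios of 15 pairs were planned, adjusted over 45 tests; the 5 pairs with ENSRNOG00000001313 were not computed, because it has counts of 0, which left 30 tests. The rule for named genes was to report all 6 whatever their result. Sarcomere and cell type lists written by symbol could not be matched to identifiers and were not tested. The genes, lists and alternatives were chosen with earlier results of these data known. P-values of the group comparisons set a difference between groups against the variation between animals. The labels do not say whether letters pair D55 and D100 libraries, and the main fit did not pair them.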

Additional observations from a re-analysis of the deposited data

Results flagged for a closer look

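In D55 C the level of ENSRNOG00000001313 was 0.868 CPM, from 21 counts, and stood far from the other 5 D55 libraries. In D100 C it was 0.374 CPM, from 6 counts, far from the other 5 D100 libraries. Of 48 groups of values checked for a sample far from the rest, these 2 were found, and chance gives about 1 in 20. Both rest on few counts.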

How the results depend on the processing

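For D100 over control all fitted values of the 5 genes stayed below 0 in every alternative. Acta1 passed with DESeq2 (-2.16), limma-voom (-3.72), the compared groups alone (-2.20), without D55 B and E (-2.20) and without D100 E (-2.64). Tnnt2 passed with limma-voom (-1.57), and Tnni3 with limma-voom (-1.31) and without D55 B and E (-0.95). Limma-voom thus called 5 of the 5, beside 9594 of all genes, and the fit without D55 B and E 4, beside 1493. Leaving out 1 library at a time gave 0 to 3 of the 5, beside 180 to 1086 of all genes. Values were then -1.47 to -1.19 for Actc1, -2.64 to -1.79 for Acta1 and -0.84 to -0.68 for Tpm1.

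For D100 over D55 all values stayed below 0. Without D55 B and E, edgeR called 0 of the 5, all 5 at an unadjusted p under 0.05, with -0.99 for Actc1, -1.57 for Acta1, -0.72 for Tnnt2, -0.81 for Tnni3 and -0.44 for Tpm1. With the fraction of counts in the top 10 genes as a term it called 0, with 1 at an unadjusted p under 0.05, and values of -0.44, -0.37, -0.024, -0.18 and -0.18 in that order. With the replicate letter as a block it called 0 of the 5 and 0 of all 13295 genes tested, with all 5 and 5916 of all genes at an unadjusted p under 0.05, and values of -1.31, -2.79, -1.16, -1.27 and -0.62. The labels do not say whether a shared letter pairs libraries. The correlation of same-letter deviations was -0.501 to 0.628, and 1 of 6 correlated best with its own letter, which cannot exclude a pairing. Leaving out 1 library gave 3 to 5 of the 5, beside 1172 to 6745 of all genes, with -1.33 to -0.95 for Tnnt2 and -0.68 to -0.53 for Tpm1.

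For D55 over control 0 of the 5 passed in any alternative by edgeR, DESeq2 or limma-voom. At an unadjusted p under 0.05 limma-voom had 4, beside 3089 of all genes. EdgeR with the top 10 genes as a term had 3 at that level, beside 1479. Several values changed sign. Actc1 became 0.021 with DESeq2 scaling, 0.19 without scaling, 0.000404 without a filter, 0.048 with a stricter one (5 CPM in 4 libraries), 0.021 with DESeq2, 0.0078 with the groups alone and 0.019 summed with Acta1, and Tpm1 0.051 without scaling. With limma-voom, then with D55 B and E left out, then with that fraction as a term, Acta1 became -1.06, -0.62 and -0.29, Tnnt2 -0.53, -0.32 and -0.37, and Tnni3 -0.31, -0.14 and -0.14. Leaving out 1 library gave -0.18 to 0.11 for Actc1 and -0.081 to 0.21 for Tnnt2.

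No ratio passed in any alternative. Without D55 B and E, D55 minus control changed sign for Actc1 to Acta1 (0.087), Actc1 to Tnnt2 (0.040), Acta1 to Tnnt2 (-0.047), Acta1 to Tnni3 (-0.22), Acta1 to Tpm1 (-0.054) and Tnnt2 to Tpm1 (-0.0069). With 1 library left out it was -0.093 to 0.019 for Actc1 to Tnnt2 and -0.067 to 0.59 for Acta1 to Tnni3, and D100 minus D55 was -0.13 to 0.042 for Actc1 to Tnni3. The cause of these changes was not tested. D100 F, with 4.69 M counts, measures low genes least surely.

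Over all genes, D100 over control called 621 by edgeR, 1438 by DESeq2, 9594 by limma-voom, 409 without a filter, 1493 without D55 B and E, 1407 with the top 10 genes as a term and 180 to 1086 with 1 library left out. Without scaling it called 90 higher and 1082 lower, against 272 and 349. D100 over D55 called 5041, 6600 by DESeq2, 3018 with the groups alone, 123 without D55 B and E, 41 with the top 10 genes as a term, and 1172 to 6745 with 1 library left out, and without scaling 141 higher and 6875 lower, against 1944 and 3097. D55 over control called 9, 88 by DESeq2 and 522 by limma-voom, and 0 to 15 with 1 library left out.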
